A study of Homo sapiens with 12 samples.

Results

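The HOX genes encode homeodomain transcription factors and lie in 4 clusters in the human genome. They were examined in RNA sequencing of PANC-1, a human line grown from a carcinoma of the pancreatic duct, after 24 h of treatment. Every gene of the count table whose name is HOX followed by a cluster letter from A to D and a paralogue number was taken. The rule used names alone, but earlier results of these data were known when it was set. This gave 40 rows with 39 names among the 57773 genes of the table. HOXC4 has 2 rows, a long gene (ENSG00000198353) and a short one (ENSG00000273266) that lies within it. The 4 groups held 3 libraries each. They received 30 nM chaetocin with 90 nM MLN8237 (the combination), 30 nM chaetocin alone, 90 nM MLN8237 alone, or the vehicle DMSO. The design text writes the second compound of the combination as MLN3237, which was read here as MLN8237, the name in the treatment protocol. The labels do not say whether the 3 libraries of a group are separate cultures. The p-values therefore cover the spread among these libraries, and that spread may be technical. The cells are 1 line at 1 time and 1 dose per compound. Chaetocin is a fungal metabolite known as an inhibitor of histone lysine methyltransferases of the SUV39 type, and MLN8237 (alisertib) is an inhibitor of Aurora kinase A.

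HOX genes set positional identity along the body axis in embryos. Their order on the chromosome matches the order in which they are used from front to back, and genes with the same number in different clusters are paralogues with closely related proteins. Trithorax proteins keep HOX genes active, Polycomb complexes keep them silent, and retinoic acid induces the low-numbered genes. HOX proteins bind DNA with cofactors of the PBX, MEIS and PKNOX families. Paralogues 1 to 3 are called anterior here, 4 to 8 central and 9 to 13 posterior. In hg19, the build of the files, the HOXA genes lie at chr7:27132612-27239725, the HOXB genes at chr17:46605888-46806540, the HOXC genes at chr12:54332535-54449814 and the HOXD genes at chr2:176957619-177055688. Of the 40 rows, 37 overlap another gene of the table, and the labels do not state a strand setting for the counting. Reads of such a gene and its overlapping partner can therefore not be told apart where they share exons.

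In the combination the HOXC cluster fell as a whole, with all 10 of its rows lower than in vehicle, and 8 of the 9 tested HOXB genes fell too. The HOXA cluster was mixed, with HOXA11 higher and HOXA6, HOXA13 and HOXA5 lower, and the HOXD cluster was low in every group. With chaetocin alone 14 rows fell and HOXA11 rose. No HOX gene passed the test with MLN8237 alone, where only 1 of the 22831 genes tested passed. Of all genes tested, 18.3% were lower and 20.1% higher with the combination. With chaetocin 11.9% were lower and 12.6% higher.

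A table of RefSeq promoters (GRCh38.p14) matched 20 of the 39 names. The windows shown are those of the members that changed with chaetocin and with the combination and whose window is not all UTR, because they let a gene that rose be set beside genes that fell. HOXA11 rose, HOXA13 and HOXA6 of the same cluster fell, and HOXD3 is the HOXD gene that fell. Each line is the 250 bases before a start listed for the gene, 5′ to 3′ on the gene's strand. For HOXA13 only the 235 of them that lie outside its annotated UTR are shown. The listed starts of HOXA6 and HOXD3 lie inside the longer gene that was counted, so these windows are not upstream of that gene. Capitals mark matches to the motifs searched. HOXA11 (chr7:27185233-27185482, minus strand), HOXA13 (chr7:27200107-27200341, minus strand), HOXA6 (chr7:27147775-27148024, minus strand) and HOXD3 (chr2:176157057-176157306, plus strand) read as follows.
HOXA11: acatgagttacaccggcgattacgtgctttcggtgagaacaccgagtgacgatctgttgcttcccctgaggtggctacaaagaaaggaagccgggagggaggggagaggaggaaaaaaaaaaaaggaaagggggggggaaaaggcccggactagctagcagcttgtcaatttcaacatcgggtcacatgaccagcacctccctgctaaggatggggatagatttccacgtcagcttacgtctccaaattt
HOXA13: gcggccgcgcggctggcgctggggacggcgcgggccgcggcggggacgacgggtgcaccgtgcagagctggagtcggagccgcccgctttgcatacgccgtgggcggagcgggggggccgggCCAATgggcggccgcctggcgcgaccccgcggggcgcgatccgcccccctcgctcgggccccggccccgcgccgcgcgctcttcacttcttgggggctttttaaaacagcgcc
HOXA6: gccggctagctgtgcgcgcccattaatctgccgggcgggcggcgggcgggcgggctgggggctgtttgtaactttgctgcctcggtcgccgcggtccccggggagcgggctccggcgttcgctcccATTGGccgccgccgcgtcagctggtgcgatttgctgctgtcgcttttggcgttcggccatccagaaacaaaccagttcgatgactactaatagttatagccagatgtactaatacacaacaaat
HOXD3: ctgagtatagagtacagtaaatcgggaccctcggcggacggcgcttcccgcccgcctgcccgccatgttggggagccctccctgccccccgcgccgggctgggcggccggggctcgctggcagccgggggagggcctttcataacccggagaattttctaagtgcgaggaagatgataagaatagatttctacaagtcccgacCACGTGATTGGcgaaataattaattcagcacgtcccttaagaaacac
HOXA13 holds 1 CCAAT box, the letters to which the factor NF-Y binds, on the gene's strand, and HOXA6 holds 1 on the other strand. HOXD3 holds a CACGTG E-box directly followed by a CCAAT box on the other strand, and HOXA11 holds none of the motifs searched. HOXA11's window overlaps exons of the antisense gene HOXA11-AS. Composition also differs: the full window of HOXA13 is 78.0% G and C with 40 CpG, and that of HOXA11 is 51.6% with 11 CpG. HOXA6 and HOXD3 lie between them, at 62.0% with 27 CpG and 59.2% with 21 CpG. The window of HOXD8, which did not pass the test, holds none of the motifs either. Only 1 gene that rose is shown, and a link of motifs or composition to the changes was not tested. HOXC4 and HOXC5 are described below, with HOXC12, as having the strongest decreases in the HOXC cluster. HOXC4 and HOXC5 share 1 window in the table, chr12:54016638-54016887 on the plus strand, which lies in an annotated UTR of HOXC6 and is not printed.

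Both strands were searched for the box CCAAT, for the E-box CACGTG, for the TATA box TATAAA and for the joint HOX and PBX site TGATTNAT, and no motif contains another. Over the 26 distinct HOX windows, CCAAT was found in 65.4%, against 32.0% of the 35116 promoter windows of the same length in the table. CACGTG was found in 30.8% of HOX windows and 6.34% of all windows. TATAAA was found in 19.2% and 10.7%, and TGATTNAT in 7.69% and 2.48%. HOX windows held a median of 19.5 CpG and all windows a median of 11, while the median share of G and C was 58.8% and 58.0%. A match describes letters only. The HOX windows were nearly all of HOXA and HOXD genes. The HOXB cluster was represented by HOXB1 alone, which was too low to test. The HOXC cluster was represented by the window that HOXC4 and HOXC5 share and by no other. These shares and medians therefore do not describe the promoters of the HOXB and HOXC clusters.

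The libraries held 49439795 to 63747510 counts over all genes. Levels are given as CPM, counts scaled to a common library size with TMM factors, and as CPM per kb of the deposited gene length where genes are compared with each other. CPM are relative to all RNA in a library, so fewer cells of a type and less RNA per cell cannot be told apart. Of the 40 rows, 35 passed the filter on low counts. The other 5 were HOXA7 with 75 counts over all 12 libraries, HOXD9 with 55, HOXD12 with 29, HOXB1 with 6 and HOXD13 with 4. All 6 HOXB1 counts came from 1 library, the third of the combination. On principal components of all tested genes, the first (59.95% of the variance) separated the libraries with chaetocin from those without, and the second combination library (-50.85) lay nearer the chaetocin libraries (-37.28 to -46.36) than the other 2 did (-95.27 and -89). On the second component (14.62%), the third libraries of the combination, chaetocin and MLN8237 lay apart from the others, with MLN8237 library 3 at -82.69. Calls are therefore also given without these libraries where that changes them.

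In vehicle cells the mean level per kb ran from 0.0339 CPM per kb for HOXD12 to that of HOXC10, with HOXB1 and HOXD13 at 0 in all 3 vehicle libraries. HOXC10, a gene of lumbar spinal cord and hindlimb patterning, was highest at 44.9 ± 2.4 CPM per kb (SD, n = 3). HOXC13, which drives hair keratin genes, followed at 27.6 ± 1.18, and HOXB7 at 26.1 ± 1.2, and their libraries overlapped (26.4 to 28.8 and 24.8 to 27.2 CPM per kb). HOXB9 stood at 20.4 ± 1.28 and HOXB5 at 16.2 ± 0.5 CPM per kb, neither overlapping a neighbour in the order. HOXC9, HOXB2, HOXC12 and HOXB6 lay between 12.7 and 13 CPM per kb on average, with overlapping libraries. In the HOXA cluster HOXA3 averaged 3.42 ± 0.141 CPM per kb, and the highest HOXD gene, HOXD3, averaged 0.412 ± 0.0271 CPM per kb. HOXD4 overlapped HOXD3 (0.39 ± 0.0426 CPM per kb), and HOXA4 to HOXA10 averaged between 0.045 (HOXA7) and 1.75 (HOXA5) CPM per kb. The genes with the highest levels per kb were thus HOXB2 to HOXB9 and most HOXC genes.

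**Figure D1:**
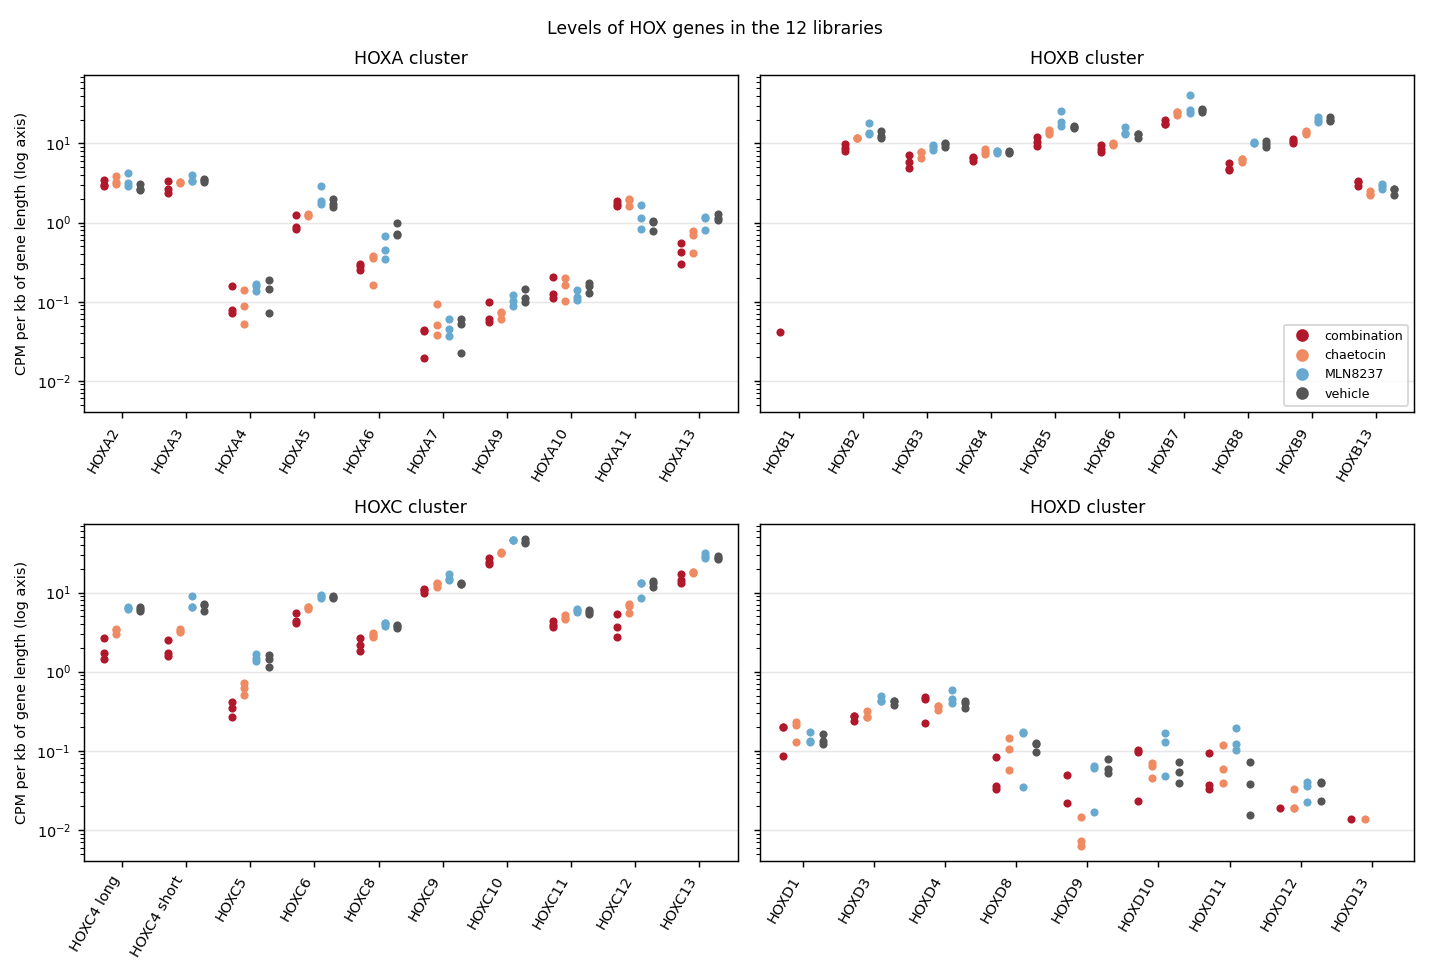
CPM per kb of gene length (log axis) of every HOX gene reported here in each of the 12 libraries, by cluster and paralogue number, with one point per library coloured by group; libraries with no count of a gene have no point. HOXB2 to HOXB9 and most HOXC genes lie above 1 CPM per kb in every group, and every HOXD gene lies below it.

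Summed over all 40 rows, HOX expression was 427, 502 and 420 CPM in combination libraries, 555, 579 and 546 CPM in chaetocin libraries, 743, 761 and 811 CPM in MLN8237 libraries, and 752, 738 and 705 CPM in vehicle libraries. The combination and the chaetocin libraries lay below all vehicle libraries, and the MLN8237 libraries overlapped them. The HOXC sum was 158 to 198 CPM with the combination, 220 to 231 with chaetocin, 338 to 343 with MLN8237 and 319 to 340 with vehicle. The HOXB sum was 218 to 259 CPM, 282 to 299 CPM, 358 to 418 CPM and 341 to 362 CPM in the same order of groups. The HOXA sum of each treated group overlapped that of vehicle, at 38.7 to 42.9 CPM with the combination, 41.1 to 45.4 with chaetocin, 43.0 to 47.3 with MLN8237 and 40.5 to 46.7 with vehicle.

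The combination was compared with vehicle by edgeR's quasi-likelihood test. The p-values were adjusted over the 22831 genes tested, with calls at an adjusted p under 0.05. The value after ± beside a log2 fold change is its standard error, worked back from the fold change and the test statistic. The combination left 22 of the 35 tested HOX rows lower and 3 higher, where 18.3% of all genes tested were lower and 20.1% higher. Both HOXC4 rows, which overlap and may share reads, enter separately here and in the counts and sums of rows given elsewhere. The median log2 fold change was -0.62 over the HOX rows and 0.02 over all genes tested. By position, 3 of 7 tested anterior rows were lower and 1 higher, 12 of 15 central rows were lower, and 7 of 13 posterior rows were lower and 2 higher. Chaetocin alone against vehicle left 14 of 35 rows lower and 1 higher, where 11.9% of all genes tested were lower and 12.6% were higher. The median was -0.36 over the HOX rows and 0.01 over all genes tested. Both comparisons use the same vehicle libraries, so their values are given side by side and not as separate evidence.

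**Figure D2:**
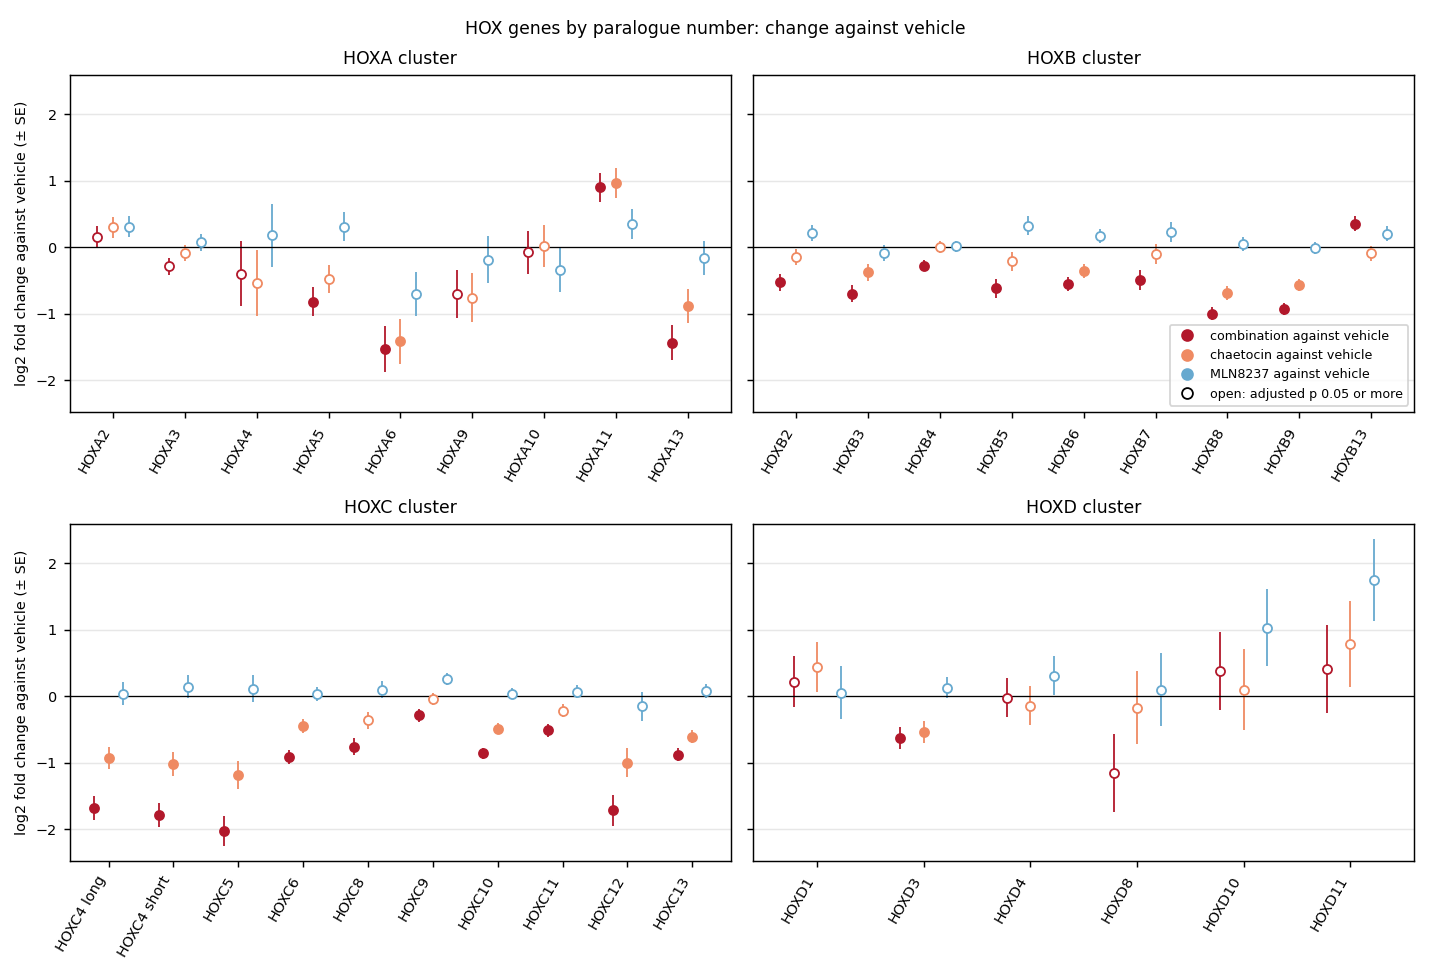
Log2 fold change against vehicle with its standard error for each tested HOX gene reported here, by cluster and paralogue number, for the combination, chaetocin and MLN8237; filled points passed an adjusted p of 0.05. All 10 HOXC rows are filled and below 0 for the combination, HOXA11 and HOXB13 are filled and above 0 for it, and no point of MLN8237 is filled.

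The strongest decreases in the HOXC cluster were in HOXC4 and HOXC5 at its anterior end and in HOXC12 near its posterior end. HOXC5, a central paralogue of low level, had 0.482, 0.752 and 0.629 CPM in combination libraries, 1.28, 0.914 and 1.13 CPM in chaetocin libraries, 2.5, 2.71 and 3.01 CPM in MLN8237 libraries and 2.91, 2.1 and 2.59 CPM in vehicle libraries. The long HOXC4 row had 4.73, 7.31 and 3.93 CPM in combination libraries, 9.55, 9.11 and 8.18 CPM in chaetocin libraries, 17.6, 16.9 and 18 CPM in MLN8237 libraries and 17, 16.1 and 18 CPM in vehicle libraries. The short HOXC4 row had 2.88, 4.14 and 2.64 CPM in combination libraries, 5.73, 5.41 and 5.33 CPM in chaetocin libraries, 11, 10.8 and 14.9 CPM in MLN8237 libraries and 11.7, 9.7 and 12 CPM in vehicle libraries. For each of the 3 rows all combination libraries lay below all chaetocin libraries, which lay below all MLN8237 and vehicle libraries. Against vehicle, HOXC5 fell by 75.5% with the combination (log2 fold change -2.03 ± 0.222, adjusted p = 2.8e-05) and fell by 56.3% with chaetocin (-1.19 ± 0.211, adjusted p = 0.00146). The long HOXC4 row fell with the combination (log2 fold change -1.68 ± 0.178, adjusted p = 2.17e-05) and with chaetocin (-0.93 ± 0.173, adjusted p = 0.00196). The short row fell by like amounts with the combination (log2 fold change -1.79 ± 0.182, adjusted p = 1.64e-05) and chaetocin (-1.02 ± 0.176, adjusted p = 0.00125). It overlaps the long row and may share reads with it, so it is not taken as a second measurement.

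HOXC12, a posterior gene beside HOXC13, had 12.2, 18 and 9.13 CPM in combination libraries, 23.9, 22.3 and 18.4 CPM in chaetocin libraries, 44.8, 43.5 and 28.1 CPM in MLN8237 libraries and 44, 46.9 and 38.5 CPM in vehicle libraries. Its combination libraries lay below its chaetocin libraries, which lay below every MLN8237 and vehicle library, and MLN8237 library 3 lay under the other 2 of its group. HOXC12 fell by 69.6% with the combination (log2 fold change -1.72 ± 0.227, adjusted p = 9.92e-05) and fell by 50.0% with chaetocin (-1.0 ± 0.222, adjusted p = 0.00568). HOXC13 had 32.7, 42.4 and 34.8 CPM in combination libraries, 44.2, 44.5 and 43.3 CPM in chaetocin libraries, 66.7, 70.5 and 77.2 CPM in MLN8237 libraries and 70.2, 67.5 and 64.4 CPM in vehicle libraries. HOXC10 had 53, 64.3 and 56.2 CPM in combination libraries, 73.1, 76.5 and 73.5 CPM in chaetocin libraries, 108, 108 and 107 CPM in MLN8237 libraries and 111, 103 and 100 CPM in vehicle libraries. Both genes, the first 2 in the order of levels per kb in vehicle, showed the order combination, chaetocin and then the other groups with no overlap between these steps. HOXC13 fell by 45.6% with the combination (log2 fold change -0.88 ± 0.101, adjusted p = 3.9e-05) and fell by 34.7% with chaetocin (-0.61 ± 0.101, adjusted p = 0.000898). HOXC10 fell by 44.8% with the combination (log2 fold change -0.86 ± 0.0856, adjusted p = 1.47e-05) and fell by 29% with chaetocin (-0.49 ± 0.0851, adjusted p = 0.00123).

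HOXC6, a central gene of thoracic patterning, had 14.7, 19.7 and 15.5 CPM in combination libraries, 22.2, 23 and 23.5 CPM in chaetocin libraries, 30, 33.3 and 32.2 CPM in MLN8237 libraries and 30.3, 31.8 and 31.4 CPM in vehicle libraries. HOXC8, which helps set motor neuron pools of the forelimb in mice, had 7.38, 8.92 and 6.12 CPM in combination libraries, 9.81, 10.3 and 9.35 CPM in chaetocin libraries, 12.9, 13.8 and 13.9 CPM in MLN8237 libraries and 11.9, 13 and 12.9 CPM in vehicle libraries. Both were lower in every combination library than in any vehicle library. HOXC6 passed the test with the combination (log2 fold change -0.91 ± 0.107, adjusted p = 4.63e-05) and with chaetocin (-0.45 ± 0.106, adjusted p = 0.00837). HOXC8 passed it with the combination (-0.76 ± 0.127, adjusted p = 0.000533), while its value with chaetocin was -0.36 ± 0.126, adjusted p = 0.053. HOXC8 did pass with chaetocin by DESeq2, by limma-voom, in the fit on the 2 groups alone, and in the fit without the third treated libraries (log2 -0.32, adjusted p = 0.0332).

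HOXC9, which marks thoracic motor neurons in mice, had 16.9, 17.9 and 18.7 CPM in combination libraries, 19.5, 22.1 and 21.8 CPM in chaetocin libraries, 25, 24.3 and 29.1 CPM in MLN8237 libraries and 21.7, 22.1 and 21.6 CPM in vehicle libraries. HOXC11, whose gene overlaps the non-coding gene HOTAIR, had 12.9, 14.3 and 12 CPM in combination libraries, 15.2, 17.2 and 15.5 CPM in chaetocin libraries, 19.7, 18.7 and 20.1 CPM in MLN8237 libraries and 19.7, 18.6 and 17.6 CPM in vehicle libraries. These were the smallest changes of the cluster. HOXC11 fell with the combination (log2 fold change -0.51 ± 0.0975, adjusted p = 0.00122), and its value with chaetocin was -0.22 ± 0.097, adjusted p = 0.115. HOXC9 fell with the combination (-0.29 ± 0.0954, adjusted p = 0.0295), and its chaetocin value was -0.04 ± 0.0952, adjusted p = 0.796. The HOXC9 call was lost without combination library 1 (log2 -0.24, adjusted p = 0.12) and without vehicle library 1 (-0.3, adjusted p = 0.0573), 2 (-0.29, adjusted p = 0.0725) or 3 (-0.31, adjusted p = 0.0511). It was lost too with no filter on low counts and with the stricter filter of at least 1 CPM in 6 libraries (adjusted p = 0.0775 and 0.0761).

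In the HOXB cluster HOXB8 and HOXB9 fell most. HOXB8 had 9.69, 11.9 and 9.99 CPM in combination libraries, 12.3, 13.4 and 13.4 CPM in chaetocin libraries, 21.6, 21.9 and 21.6 CPM in MLN8237 libraries and 22.8, 21 and 19.2 CPM in vehicle libraries. HOXB9 had 28.7, 30.9 and 27.3 CPM in combination libraries, 37.2, 38.6 and 35.1 CPM in chaetocin libraries, 54.3, 58.3 and 51.2 CPM in MLN8237 libraries and 54.4, 58.8 and 52 CPM in vehicle libraries. In both genes the combination libraries lay lowest, the chaetocin libraries next, and the MLN8237 and vehicle libraries overlapped above them. HOXB8 fell by 49.8% with the combination (log2 fold change -1.0 ± 0.104, adjusted p = 1.96e-05) and fell by 37.8% with chaetocin (-0.69 ± 0.103, adjusted p = 0.000509). HOXB9 fell by 47.4% with the combination (log2 fold change -0.93 ± 0.0884, adjusted p = 1.03e-05) and fell by 32.8% with chaetocin (-0.57 ± 0.0878, adjusted p = 0.000582). HOXB7, whose gene spans both of them, had 26.8, 30.5 and 26.9 CPM in combination libraries, 35.2, 38.4 and 37.6 CPM in chaetocin libraries, 37.4, 40.5 and 61.6 CPM in MLN8237 libraries and 41.4, 39.8 and 37.7 CPM in vehicle libraries. MLN8237 library 3 was the highest library for HOXB7. HOXB7 fell with the combination (log2 fold change -0.5 ± 0.152, adjusted p = 0.02), with a chaetocin value of -0.1 ± 0.151, adjusted p = 0.697. The combination call was lost without combination library 1 (-0.46, adjusted p = 0.0819) or 3 (-0.47, adjusted p = 0.0613) or vehicle library 1 (-0.48, adjusted p = 0.0558).

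HOXB2, HOXB3 and HOXB4 had smaller fold changes than HOXB8 and HOXB9. HOXB2, a gene of hindbrain segment identity, had 27.9, 34.1 and 30.3 CPM in combination libraries, 40, 40.1 and 40.1 CPM in chaetocin libraries, 46.6, 45.9 and 62.1 CPM in MLN8237 libraries and 49.1, 43.7 and 40.8 CPM in vehicle libraries. HOXB3 had 43.1, 52.6 and 36.1 CPM in combination libraries, 58.2, 57.9 and 49.1 CPM in chaetocin libraries, 71.4, 67.8 and 62.5 CPM in MLN8237 libraries and 67.1, 73 and 74.6 CPM in vehicle libraries. HOXB4, known for expanding blood stem cells when overexpressed, had 25, 25.4 and 22.6 CPM in combination libraries, 27.6, 31.9 and 28.9 CPM in chaetocin libraries, 28.7, 30.1 and 30.2 CPM in MLN8237 libraries and 30.2, 29.7 and 28.4 CPM in vehicle libraries. Combination libraries lay below vehicle libraries in all 3 genes, and chaetocin libraries overlapped vehicle only in HOXB4. HOXB2 fell with the combination (log2 fold change -0.53 ± 0.123, adjusted p = 0.00422), with a chaetocin value of -0.15 ± 0.123, adjusted p = 0.419. HOXB3 fell with the combination (-0.7 ± 0.126, adjusted p = 0.000787) and, just past the threshold, with chaetocin (-0.38 ± 0.125, adjusted p = 0.0421). HOXB4 fell with the combination (-0.28 ± 0.0862, adjusted p = 0.0222), with a chaetocin value of 0.0 ± 0.0859, adjusted p = 0.99. The HOXB3 call with chaetocin was lost when any 1 of the 6 libraries was left out, with adjusted p-values of 0.0599 to 0.153, and under the stricter filter (adjusted p = 0.0568). The HOXB4 call with the combination was lost without combination library 3 (-0.23, adjusted p = 0.087) or vehicle library 1 (-0.27, adjusted p = 0.0616) or 2 (-0.28, adjusted p = 0.0585), and with no filter or the stricter one (adjusted p = 0.0767 and 0.0612).

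HOXB5, which takes part in lung and gut development, had 19, 24.7 and 21.1 CPM in combination libraries, 26.9, 28.8 and 30.2 CPM in chaetocin libraries, 33.9, 38 and 52 CPM in MLN8237 libraries and 34.2, 33 and 32.2 CPM in vehicle libraries. HOXB6 had 34.9, 38.8 and 31.6 CPM in combination libraries, 40.1, 41.4 and 39.3 CPM in chaetocin libraries, 55, 53.5 and 66.1 CPM in MLN8237 libraries and 53.2, 53.8 and 48.6 CPM in vehicle libraries. Both were below vehicle in every combination and chaetocin library, and both were highest in MLN8237 library 3. HOXB5 fell with the combination (log2 fold change -0.62 ± 0.143, adjusted p = 0.00427), with a chaetocin value of -0.21 ± 0.142, adjusted p = 0.32. HOXB6 fell with the combination (-0.56 ± 0.103, adjusted p = 0.000932) and with chaetocin (-0.36 ± 0.103, adjusted p = 0.0202). The chaetocin call of HOXB6 was lost without chaetocin library 1, 2 or 3 (adjusted p = 0.0535, 0.0522 and 0.0637) or vehicle library 1 or 2 (adjusted p = 0.0648 and 0.0768).

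HOXB13, a prostate lineage gene that lies apart from the rest of the HOXB cluster, was the HOXB gene that went up. HOXB13 had 11.2, 10.2 and 11.7 CPM in combination libraries, 7.78, 8.7 and 7.93 CPM in chaetocin libraries, 9.13, 10 and 10.7 CPM in MLN8237 libraries and 9.14, 9.12 and 7.71 CPM in vehicle libraries. Its 3 combination libraries lay above its chaetocin and vehicle libraries, and MLN8237 library 3 overlapped them. HOXB13 rose with the combination (log2 fold change 0.35 ± 0.114, adjusted p = 0.0274), with a chaetocin value of -0.09 ± 0.114, adjusted p = 0.628 and a combination against chaetocin value of 0.44 ± 0.113, adjusted p = 0.208. The call was lost without combination library 1 (0.34, adjusted p = 0.0734) or 3 (0.3, adjusted p = 0.091) or vehicle library 2 (0.38, adjusted p = 0.0528) or 3 (0.26, adjusted p = 0.133), and with no filter (0.33, adjusted p = 0.123).

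**Figure D3:**
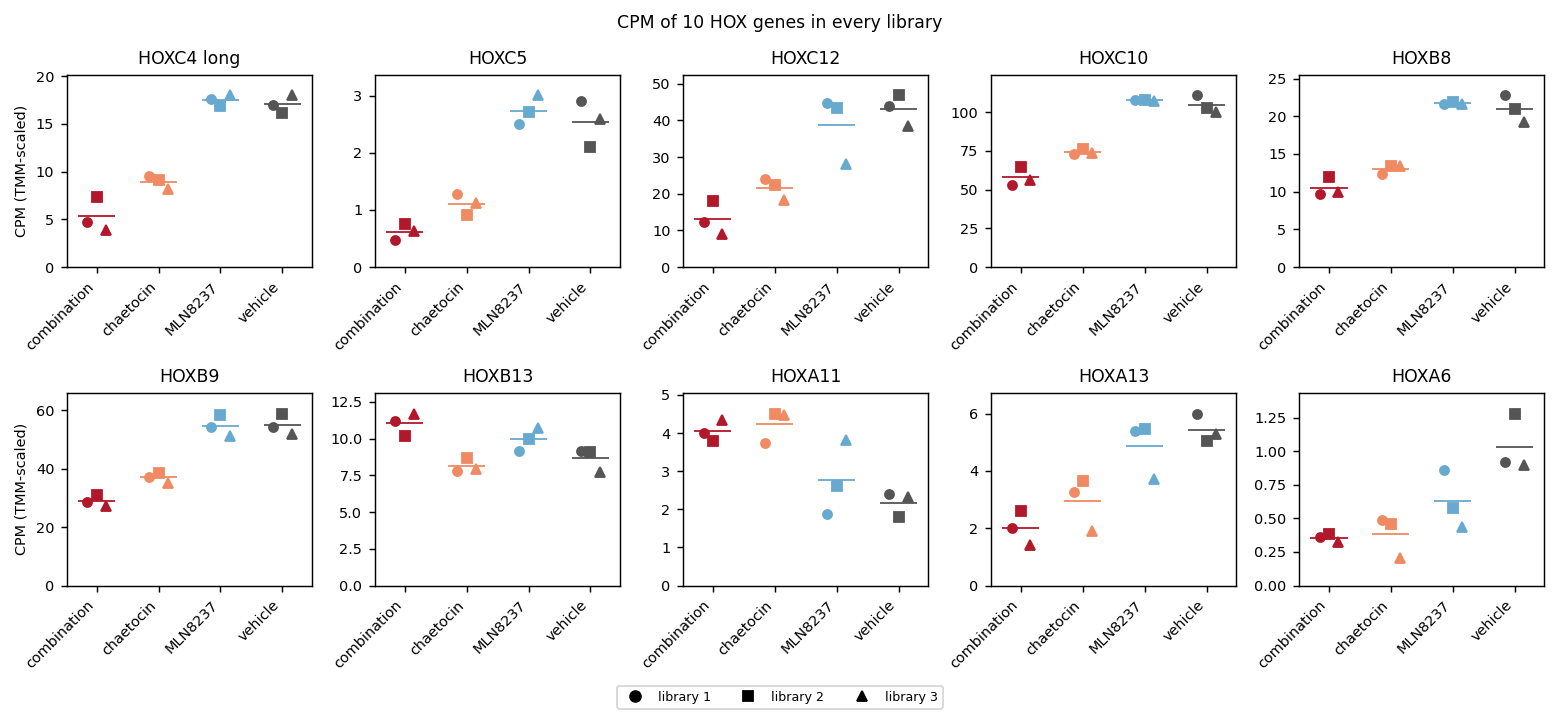
CPM (linear axis from 0) of 10 HOX genes in each library, with one marker shape per library number and a line at each group's mean. HOXC4 (long row), HOXC5, HOXC12, HOXC10, HOXB8 and HOXB9 lie lowest with the combination and next lowest with chaetocin, HOXB13 lies highest with the combination, and HOXA11 is high with both treatments that hold chaetocin.

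In the HOXA cluster, neighbouring genes moved in opposite directions. HOXA11, a gene of limb and uterus development, had 4.01, 3.79 and 4.35 CPM in combination libraries, 3.75, 4.51 and 4.47 CPM in chaetocin libraries, 1.89, 2.62 and 3.82 CPM in MLN8237 libraries and 2.41, 1.79 and 2.33 CPM in vehicle libraries. HOXA13, a gene of the distal limb and the urogenital tract, had 2.01, 2.59 and 1.41 CPM in combination libraries, 3.26, 3.64 and 1.91 CPM in chaetocin libraries, 5.39, 5.47 and 3.73 CPM in MLN8237 libraries and 6, 5.05 and 5.29 CPM in vehicle libraries. HOXA11 libraries with chaetocin, alone or in the combination, lay above every vehicle library, and for HOXA13 the same libraries lay below every vehicle library. In MLN8237 library 3 HOXA11 was as high as with chaetocin, and HOXA13 was lower than in the other 2 libraries of the group. HOXA11 rose by 86.5% with the combination (log2 fold change 0.9 ± 0.223, adjusted p = 0.00639) and by 95.2% with chaetocin (0.97 ± 0.223, adjusted p = 0.00716). HOXA13 fell by 63.2% with the combination (log2 fold change -1.44 ± 0.262, adjusted p = 0.000898) and fell by 46.0% with chaetocin (-0.89 ± 0.256, adjusted p = 0.0227). The chaetocin call of HOXA13 was lost without chaetocin library 3 (-0.66, adjusted p = 0.0836) or vehicle library 1 (-0.82, adjusted p = 0.0757) or 3 (-0.91, adjusted p = 0.0516). HOXA11 overlaps HOXA11-AS and HOXA13 overlaps HOTTIP, so each value may hold reads of both genes of the pair.

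HOXA5, which acts in lung development, had 1.52, 1.4 and 2.14 CPM in combination libraries, 2.22, 2.06 and 2.15 CPM in chaetocin libraries, 2.96, 3.24 and 4.89 CPM in MLN8237 libraries and 2.94, 3.34 and 2.68 CPM in vehicle libraries. HOXA6 had 0.358, 0.385 and 0.323 CPM in combination libraries, 0.486, 0.457 and 0.208 CPM in chaetocin libraries, 0.864, 0.578 and 0.439 CPM in MLN8237 libraries and 0.922, 1.28 and 0.894 CPM in vehicle libraries. Each combination library lay below each vehicle library for both genes, and so did each chaetocin library. For HOXA6 the MLN8237 libraries lay below vehicle too, with a log2 fold change of -0.71 ± 0.332, adjusted p = 0.516 against vehicle. HOXA5 fell with the combination (log2 fold change -0.82 ± 0.22, adjusted p = 0.00986), with a chaetocin value of -0.48 ± 0.217, adjusted p = 0.13. HOXA5 passed with chaetocin in the fit on the 2 groups alone (-0.47, adjusted p = 0.0323). HOXA6 fell by 65.4% with the combination (log2 fold change -1.53 ± 0.344, adjusted p = 0.00352) and fell by 62.6% with chaetocin (-1.42 ± 0.341, adjusted p = 0.00897), from 64, 70 and 164 counts over the 3 combination, chaetocin and vehicle libraries.

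HOXA2, a gene of the hindbrain and neural crest, had 6.21, 7.05 and 5.95 CPM in combination libraries, 6.41, 7.98 and 6.81 CPM in chaetocin libraries, 6.6, 6.05 and 8.71 CPM in MLN8237 libraries and 6.42, 5.31 and 5.51 CPM in vehicle libraries. HOXA3, which shapes thymus and parathyroid, had 11.5, 14.4 and 10.3 CPM in combination libraries, 14.1, 13.9 and 13.5 CPM in chaetocin libraries, 14.5, 17.4 and 14.5 CPM in MLN8237 libraries and 15.3, 14.7 and 14.1 CPM in vehicle libraries. For both genes the combination libraries overlapped the vehicle libraries. HOXA2 had log2 fold changes of 0.16 ± 0.156, adjusted p = 0.462 with the combination and 0.3 ± 0.156, adjusted p = 0.188 with chaetocin, and HOXA3 had values of -0.29 ± 0.124, adjusted p = 0.0834 and -0.09 ± 0.123, adjusted p = 0.658. HOXA3 passed with the combination when library 2 of that group was left out (-0.44, adjusted p = 0.00864). HOXA4, HOXA9 and HOXA10 had 29 to 106 counts per group and did not pass the test.

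The HOXD genes were low throughout. HOXD3, the most counted of them, had 1.54, 1.33 and 1.55 CPM in combination libraries, 1.75, 1.49 and 1.49 CPM in chaetocin libraries, 2.37, 2.77 and 2.37 CPM in MLN8237 libraries and 2.39, 2.12 and 2.36 CPM in vehicle libraries. HOXD4 had 0.654, 0.332 and 0.697 CPM in combination libraries, 0.538, 0.533 and 0.485 CPM in chaetocin libraries, 0.662, 0.868 and 0.593 CPM in MLN8237 libraries and 0.503, 0.584 and 0.626 CPM in vehicle libraries. HOXD1 had 0.405, 0.175 and 0.408 CPM in combination libraries, 0.26, 0.427 and 0.468 CPM in chaetocin libraries, 0.349, 0.269 and 0.263 CPM in MLN8237 libraries and 0.273, 0.328 and 0.25 CPM in vehicle libraries. HOXD3 lay below vehicle in every library with chaetocin, while in HOXD4 and HOXD1 each treated group overlapped vehicle. HOXD3 fell with the combination (log2 fold change -0.63 ± 0.163, adjusted p = 0.00779) and with chaetocin (-0.54 ± 0.162, adjusted p = 0.0285). Its chaetocin call was lost without chaetocin library 2 or 3 (adjusted p = 0.107 and 0.0957), without vehicle library 1, 2 or 3 (adjusted p = 0.088, 0.0537 and 0.0811), without the third treated libraries (log2 -0.49, adjusted p = 0.0632), and with no filter (-0.53, adjusted p = 0.15). HOXD4 had log2 fold changes of -0.02 ± 0.297 with the combination and -0.14 ± 0.299 with chaetocin, and HOXD1 had 0.22 ± 0.387 and 0.44 ± 0.383. HOXD8, HOXD10 and HOXD11 had 15 to 48 counts per group and did not pass, with log2 fold changes of -1.16 ± 0.59, 0.38 ± 0.592 and 0.41 ± 0.664 with the combination.

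MLN8237 alone against vehicle gave no call among the 35 rows by edgeR, DESeq2 or limma-voom, where edgeR called 0.00438% of all genes tested (1 gene). At an unadjusted p under 0.05, 3 HOX rows were higher and none lower, where 8.49% of all genes tested passed in either direction. They were HOXC9 (log2 fold change 0.26 ± 0.0952, adjusted p = 0.516), HOXB5 (0.32 ± 0.142, adjusted p = 0.516) and HOXD11 (1.75 ± 0.617, adjusted p = 0.516). HOXC9 was above every vehicle library in all 3 MLN8237 libraries, and HOXD11 rests on 48 counts in MLN8237 and 15 in vehicle libraries. The median over the HOX rows was 0.1, and 7 of 35 values were negative.

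The combination against MLN8237 alone left 22 rows lower and 1 higher, where 22.7% of all genes tested were lower and 23.3% higher. All 10 HOXC rows and 8 of 9 HOXB genes were lower, and the median over the 35 rows was -0.74. HOXC5 had the lowest value (log2 fold change -2.14 ± 0.223, adjusted p = 1.87e-05), followed by the short HOXC4 row (-1.93 ± 0.183, adjusted p = 1e-05). HOXA3 was lower (-0.36 ± 0.124, adjusted p = 0.0317). Without the third treated libraries the count was 22, with, among others, HOXA3 (-0.29, adjusted p = 0.0675) and HOXB4 (-0.21, adjusted p = 0.0663) no longer called and HOXA6 (-0.95, adjusted p = 0.0406) and HOXA11 (0.81, adjusted p = 0.00615) called. HOXA3 also lost its call without combination library 1 (-0.32, adjusted p = 0.105) or 3 (-0.26, adjusted p = 0.122) or MLN8237 library 2 (-0.26, adjusted p = 0.141). HOXA3 lost it under the stricter filter and in the fit on the 2 groups alone as well (adjusted p = 0.0631 and 0.128). HOXB4 lost its call without combination library 3 (-0.24, adjusted p = 0.0608), with no filter (adjusted p = 0.054) and in the fit on the 2 groups alone (adjusted p = 0.0851). Rows that gained a call were HOXA11 (0.83, adjusted p = 0.00342) and HOXA6 (-1.03, adjusted p = 0.0338) without MLN8237 library 3, HOXD8 (-1.73, adjusted p = 0.0152) without MLN8237 library 1, and HOXD11 (-1.96, adjusted p = 0.0352) without combination library 3. HOXA11 was also called by DESeq2, by limma-voom and under the stricter filter (adjusted p = 0.0358, 0.03 and 0.0362).

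The combination against chaetocin alone asks what MLN8237 added to chaetocin. No HOX row and no gene of the 22831 passed by edgeR (0.0% of all genes tested), and limma-voom called no HOX row. At an unadjusted p under 0.05, 17 of 35 HOX rows were lower and 1 higher, where 4.8% of all genes tested were lower. In 17 rows all 3 combination libraries lay below all 3 chaetocin libraries, where 9.15% of all genes tested did so. They included all 10 HOXC rows, with log2 fold changes from -0.83 ± 0.226 for HOXC5 to -0.25 ± 0.0953 for HOXC9. DESeq2 called 6 HOX rows: both HOXC4 rows, HOXB9, HOXC10 and HOXC6 were lower and HOXB13 was higher, where DESeq2 called 0.438% of all genes tested lower and 0.858% higher. With no filter on low counts, edgeR called both HOXC4 rows lower (adjusted p = 0.0319 and 0.038). The second combination library decides part of this: without it, 8 rows were lower by edgeR, where 1.24% of all genes tested were lower, among them the long HOXC4 row (log2 -1.05, adjusted p = 0.0084), HOXC12 (-1.02, adjusted p = 0.0331) and HOXC6 (-0.61, adjusted p = 0.0128).

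The interaction of the compounds, the amount by which the combination's log2 change departs from the 2 single changes added up, gave no call among HOX rows by edgeR, DESeq2 or limma-voom, where edgeR called 0.0% of all genes tested. At an unadjusted p under 0.05, 17 of the 35 rows were below 0 and none above, where 7.75% of all genes tested were lower. For HOXC5 the value was -0.95 ± 0.304 and for HOXC9 it was -0.51 ± 0.135 (adjusted p = 0.362 for both). These rows were not called, and a missed threshold does not show that the compounds acted additively.

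Non-coding genes of the clusters were taken as a list of antisense genes, HOTAIR, HOTAIRM1, HOTTIP and the clusters' microRNA genes. With the combination 8 of 19 tested were lower (42.1%) and none higher, and with chaetocin 3 were lower (15.8%) and none higher, where 18.3% and 11.9% of all genes tested were lower. HOTAIR, a long RNA of the HOXC cluster known to bind Polycomb complexes, fell with the combination (log2 fold change -0.85 ± 0.137, adjusted p = 0.000378) and with chaetocin (-0.59 ± 0.136, adjusted p = 0.00687). HOXC13-AS fell with both (-0.58 ± 0.118, adjusted p = 0.00186 and -0.73 ± 0.118, adjusted p = 0.000853). HOXB-AS3 and HOXB-AS4 fell with the combination (-0.46 ± 0.101, adjusted p = 0.00309 and -1.28 ± 0.262, adjusted p = 0.00197). Of 10 tested genes inside the clusters that carry no HOX name and are not in that list, 4 were lower with the combination, 4 were lower with chaetocin, and none was higher. AC012531.23, which overlaps HOXC12, was lower with the combination (-1.72 ± 0.212, adjusted p = 6.09e-05). RP11-834C11.14, which overlaps HOXC4 and HOXC5, was lower too (-1.78 ± 0.204, adjusted p = 3.84e-05).

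The 24 tested genes that flank the clusters, 3 on each side, were counted in the same way. With the combination 5 were lower and 3 higher, that is 20.8% and 12.5% of them, beside the 18.3% and 20.1% of all genes tested. With chaetocin 1 was lower and 2 higher, 4.17% and 8.33%, beside 11.9% and 12.6%. Their medians were -0.09 and -0.03, where those of all genes tested were 0.02 and 0.01. At the HOXC4 end, RP11-834C11.3 fell (log2 fold change -1.09 ± 0.231, adjusted p = 0.0024), and on the HOXB13 side the pseudogene SUMO2P17 rose (3.29 ± 0.359, adjusted p = 2.72e-05). ATP5G2, a gene of an ATP synthase subunit on the HOXC13 side, fell with the combination (-0.77 ± 0.176, adjusted p = 0.00393), and so did HIBADH, a gene of valine breakdown on the HOXA13 side (-0.42 ± 0.102, adjusted p = 0.00557).

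**Figure D4:**
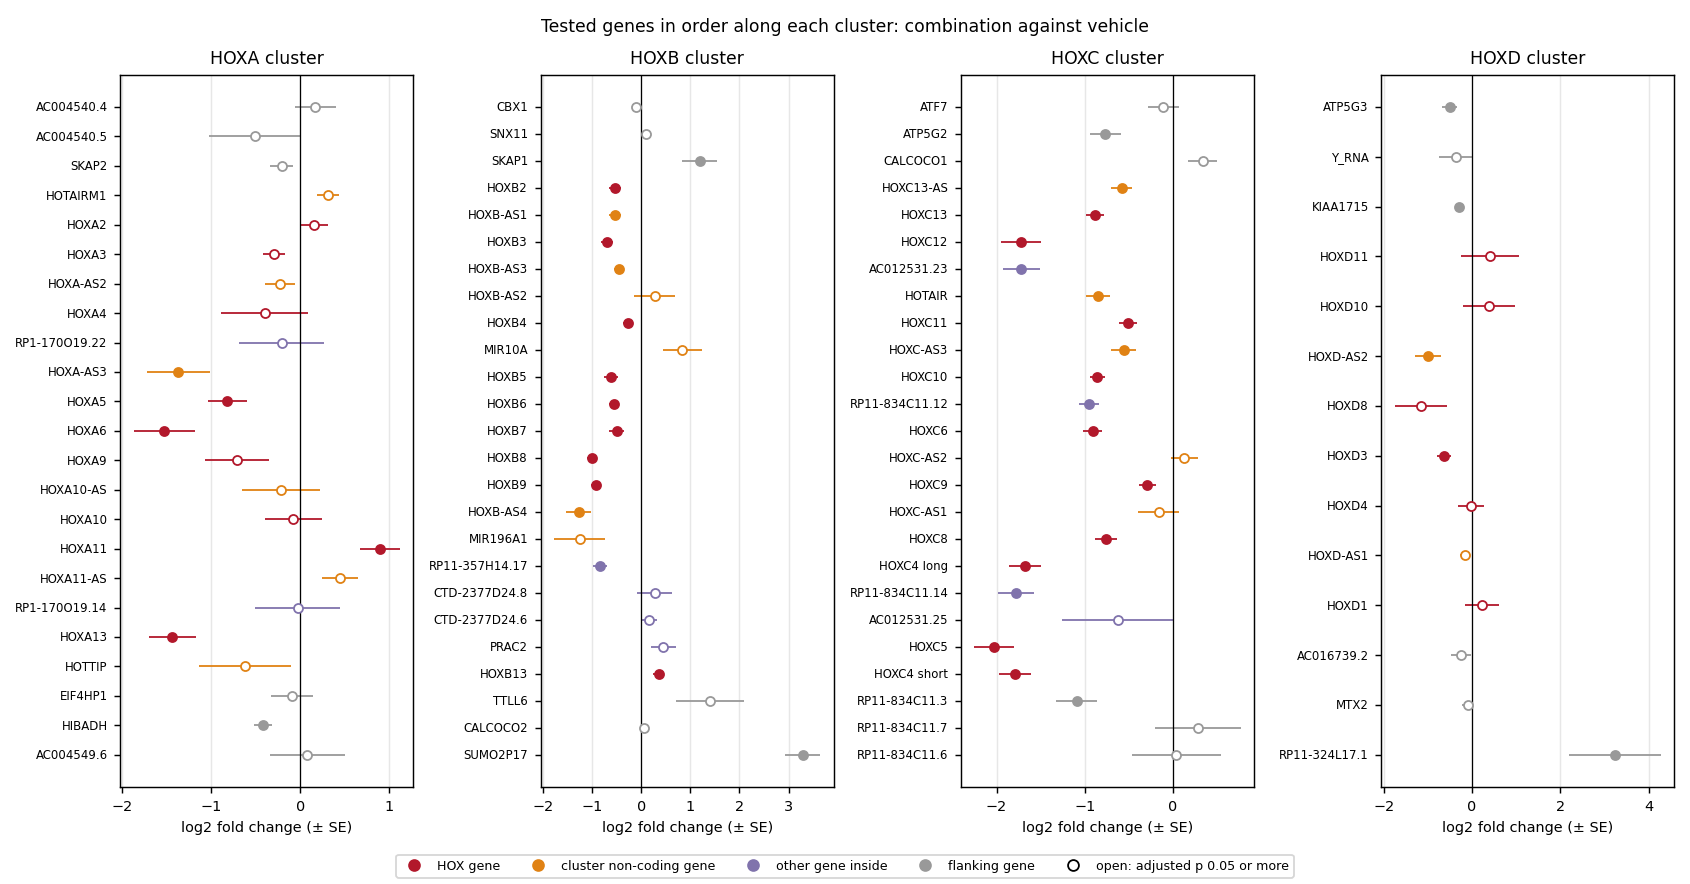
Log2 fold change of the combination against vehicle with its standard error for tested genes in chromosomal order from each cluster's low-coordinate flank (top) to its high-coordinate flank (bottom), coloured by kind of gene and filled where the adjusted p was under 0.05; the scale differs between clusters. HOXC genes and the non-coding genes between them lie mostly below 0, and flanking genes lie on both sides of it.

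The lists of regulators that follow are read against the same shares of all genes tested, 18.3% lower and 20.1% higher with the combination and 11.9% lower and 12.6% higher with chaetocin. Among the cofactors with which HOX proteins bind DNA, 2 of 8 tested genes were lower with the combination, 2 with chaetocin (25.0% each), and none was higher. PKNOX1 fell with both (log2 fold change -0.47 ± 0.0891, adjusted p = 0.00125 for the combination and -0.28 ± 0.0889, adjusted p = 0.0356 for chaetocin), and MEIS2 with chaetocin (-0.68 ± 0.16, adjusted p = 0.00811), with a combination value of -0.41 ± 0.158, adjusted p = 0.0561. Of 14 trithorax rows, 4 were lower (28.6%) and 2 higher (14.3%) with the combination, and 2 were lower (14.3%) and 1 higher (7.14%) with chaetocin. KDM6B, which removes the Polycomb mark from histone H3, rose most, with a log2 fold change of 2.27 ± 0.239, adjusted p = 2.14e-05 with the combination and 1.34 ± 0.235, adjusted p = 0.00137 with chaetocin. ASH2L, a core subunit of the MLL complexes, fell with both (-0.63 ± 0.0915, adjusted p = 0.000185 and -0.52 ± 0.0913, adjusted p = 0.00132), and so did PSIP1, which tethers MLL to chromatin (-0.63 ± 0.119, adjusted p = 0.00115 and -0.38 ± 0.119, adjusted p = 0.0336). DPY30, another core subunit, fell with the combination (-0.44 ± 0.117, adjusted p = 0.00921).

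Of 22 Polycomb genes, 7 were lower (31.8%) and 2 higher (9.09%) with the combination, and 2 were lower (9.09%) and 1 higher (4.55%) with chaetocin. RING1, a ubiquitin ligase of the complex, fell with both (log2 fold change -0.88 ± 0.134, adjusted p = 0.000265 and -0.57 ± 0.133, adjusted p = 0.00769). EZH2, the methyltransferase of the complex, rose with both (0.35 ± 0.0717, adjusted p = 0.00202 and 0.3 ± 0.0717, adjusted p = 0.00869). CBX8 fell with the combination (-0.65 ± 0.149, adjusted p = 0.00399). Of 14 retinoid and CDX genes, 7 were lower (50.0%) and 1 higher (7.14%) with the combination, and 3 were lower (21.4%) and 2 higher (14.3%) with chaetocin. ALDH1A3, which makes retinoic acid, fell with both (-0.98 ± 0.12, adjusted p = 6.05e-05 and -0.99 ± 0.12, adjusted p = 0.000121), and its relative ALDH1A2 rose with both (3.22 ± 0.638, adjusted p = 0.00161 and 2.47 ± 0.652, adjusted p = 0.0146). RXRB, a partner of retinoic acid receptors, fell with both (-0.7 ± 0.111, adjusted p = 0.00037 and -0.5 ± 0.111, adjusted p = 0.00581). DHRS3, which turns retinal back to retinol, rose with chaetocin (0.72 ± 0.173, adjusted p = 0.00869), with a combination value of 0.07 ± 0.173, adjusted p = 0.791.

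Of 15 tested homeobox genes outside the clusters, 1 was lower (6.67%) and 2 higher (13.3%) with the combination, and 2 were lower and 2 higher (13.3% each) with chaetocin. PDX1, a factor of pancreas development, fell with both (log2 fold change -1.11 ± 0.154, adjusted p = 0.000136 for the combination and -1.07 ± 0.153, adjusted p = 0.000382 for chaetocin). MSX1 rose with both (1.3 ± 0.219, adjusted p = 0.000524 and 1.03 ± 0.218, adjusted p = 0.00439), and DLX2 fell with chaetocin (-0.44 ± 0.141, adjusted p = 0.035). A list of 9 genes held CTCF and cohesin, which fold the clusters into domains, and ZNF143, which is neither. ZNF143 alone passed and was higher with the combination (1.55 ± 0.163, adjusted p = 2.14e-05) and with chaetocin (0.96 ± 0.162, adjusted p = 0.00102).

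Markers of cell types were read beside these values. Of 8 epithelial and ductal markers, 7 were lower with the combination (87.5%) and 6 with chaetocin (75.0%), where 18.3% and 11.9% of all genes tested were lower, with summed levels of 1960 to 2300 CPM in combination, 2380 to 2550 CPM in chaetocin, 4510 to 5280 CPM in MLN8237 and 4200 to 4810 CPM in vehicle libraries. KRT19, a ductal keratin, fell with the combination (log2 fold change -1.23 ± 0.18, adjusted p = 0.000201), and CDH1, the epithelial cadherin, fell too (-2.08 ± 0.468, adjusted p = 0.00359). KRT7, another keratin among the 8, did not fall. It had 4.86, 4.42 and 5.27 CPM in combination, 4.7, 5.84 and 6.63 CPM in chaetocin and 4.86, 4.05 and 3.49 CPM in vehicle libraries. Acinar and endocrine markers were too low to test, with PNLIP and INS at 0 in every library. The 5 immune markers summed to 166 to 230 CPM, 165 to 231 CPM, 170 to 201 CPM and 153 to 179 CPM in combination, chaetocin, MLN8237 and vehicle libraries, nearly all of it CD68. CD3E was at 0 in all MLN8237 and vehicle libraries, and PTPRC was at 0.903, 0.402 and 0.697 CPM with the combination, 0.469, 0.29 and 0.381 CPM with chaetocin, 0, 0 and 0.0439 CPM with MLN8237 and 0 CPM in each vehicle library. The 4 endothelial markers summed to 1.4 to 4.53 CPM, 1.46 to 1.71 CPM, 0.0368 to 0.165 CPM and 0.0715 to 0.168 CPM in the same order of groups, most of it VWF with the combination and chaetocin, and VWF was at 0 in all vehicle libraries. The 6 fibroblast markers summed to 31.8 to 47.2 CPM, 53.6 to 62.0 CPM, 53.0 to 61.1 CPM and 63.2 to 79.4 CPM, nearly all of it COL1A1. The part of these markers in the HOX values was not tested.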

How the data were processed

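Gene counts of 12 PANC-1 libraries, 3 per group, were used as deposited by the authors, unnormalized. The deposited RPKM values, which the authors scaled by gene length and library size, entered no test. CASAVA 1.9, TopHat and HTSeq are named in the submitters' processing notes with hg19, and no role, annotation or strand setting is given there.

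Of 57773 genes, 22831 passed filterByExpr in edgeR 4.0.16 (R 4.3.3). All 12 libraries were fitted with 4 group means, TMM factors and the robust quasi-likelihood test, and p-values were adjusted by Benjamini-Hochberg over all genes tested. The code was tested on simulated data with known changes. Library totals were 49439795 to 63747510 counts, and the common biological coefficient of variation was 0.155. No 2 libraries of a group agreed within sampling noise.

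Alternatives were RLE scaling, no filter (41618 genes), at least 1 CPM in 6 libraries (16375 genes), DESeq2 1.42.0, limma-voom 3.58.1, the compared groups alone, the replicate number as a block, a log2 change of at least 1, each library left out, and the treated libraries numbered 3 left out. Values in all libraries are given for members called in any comparison and for the 3 with the highest CPM per kb in each cluster. For other lists, up to 4 genes with the smallest p are named. A few genes these rules select are counted but not reported here. The members and lists were chosen with earlier results of these data known. Promoter sequences are from RefSeq (GRCh38.p14), with UTRs from GENCODE, and were read separately from the hg19 coordinates. Tables and figures used Python 3.11.15, pandas 2.3.3 and matplotlib 3.10.9.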

Additional observations from a re-analysis of the deposited data

How the results depend on the processing

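The counts of called HOX rows were 15 for chaetocin against vehicle, 25 for the combination against vehicle and 23 for the combination against MLN8237. Under RLE scaling, both other filters, DESeq2, limma-voom, the compared groups alone and the fit without the treated libraries numbered 3, these 3 counts stayed within 1.5 times. No HOX value that was called in any fit changed sign. Values called in no fit, some of them near 0, were not compared in this way. Asking also for a log2 change of at least 1 left 4, 6 and 7 rows, which the added condition itself produces. Leaving out 1 library gave 11 to 13, 21 to 26 and 21 to 24 rows. For the combination against chaetocin the count of 0 became 2 with no filter, 6 with DESeq2 and 0 to 8 when 1 library was left out, with 8 without combination library 2; the cause was not tested. For MLN8237 against vehicle and for the interaction the count was 0 under every alternative run. The interaction could not be fitted on the compared groups alone. Of the called rows, 10 of 15, 19 of 25 and 20 of 23 were tested and called under every alternative but the fold threshold; HOXA6, not tested under the stricter filter, kept its calls against vehicle in the others. With the replicate number as a block the counts were 16, 26 and 26, and 0 for the other 3 comparisons. The added calls were HOXC8 with chaetocin (-0.36, adjusted p = 0.0317), HOXA3 with the combination against vehicle (-0.3, adjusted p = 0.0392), and HOXA11 (0.58, adjusted p = 0.0263), HOXA6 (-0.8, adjusted p = 0.0498) and HOXD11 (-1.4, adjusted p = 0.0367) with the combination against MLN8237. Deviations from the group means correlated at -0.00699 to 0.462 between same-numbered treated libraries and at -0.153 to 0.139 between these and vehicle. Of the 12 libraries, 7 correlated best with one of their own number. Chaetocin and MLN8237 libraries, which meet only in the interaction, correlated at 0.314, 0.119 and 0.441. Combination and MLN8237 libraries, which were compared directly, correlated at 0.318, 0.093 and 0.436. No pair of groups compared directly had all 3 correlations over 0.1, but combination and MLN8237 missed this only narrowly. The numbers were not taken to pair the libraries, and these values do not settle whether they do. Depth limits HOXA7, HOXB1, HOXD9, HOXD12 and HOXD13, which were too low to test.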
